A study of Mus musculus with 8 samples.

Results

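Potassium channel subunits were examined as all probe sets whose single gene symbol starts with Kcn, which gave 167 of 45037 probe sets on an Affymetrix array and 84 of 18193 genes. A probe set is a group of short probes for 1 transcript region, and 46 of the 84 genes have at least 2 of them. RNA came from the striatum of newborn mice of strain BALB/c, in punches 500 µm wide cut from slices 300 µm thick on postnatal day 0. The groups were 4 Ctip2 null mice (Ctip2-/-), 1 Ctip2 heterozygote and 3 wild type mice, each on an array of its own. Ctip2 is listed under its current symbol Bcl11b and encodes a zinc finger transcription factor of striatal medium spiny neurons. The sources used here do not say which part of the gene was deleted, or whether a promoter limits the deletion to some cells.

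Potassium channels carry the currents that set the resting potential, end each action potential and pace repetitive firing. Many voltage-gated channels assemble from pore-forming subunits of 1 subfamily, such as Kcna (Kv1) or Kcnd (Kv4). Inward rectifiers (Kcnj) and two-pore channels (Kcnk) hold neurons near rest, and calcium-activated channels (Kcnma, Kcnn) follow spikes. In neurons Kv4 pores work in a complex with calcium-binding Kcnip proteins and a membrane protein of the Dpp family, and this complex carries the fast A-type current. In mature medium spiny neurons, inward rectifier and A-type currents keep the cell silent until strong excitation arrives.

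On Bcl11b all 4 probe sets were lower in the null arrays, with every null array below every wild type array. Tests used limma, a linear model that draws each probe set's variance towards a common value. Its p was adjusted by Benjamini-Hochberg across the whole array. The brightest Bcl11b probe set read 11.18 ± 0.20 in null and 12.29 ± 0.25 in wild type striatum (SD, n = 4 and 3, limma adjusted p = 0.00911). Without wild type 3 that p was 0.0563. Values are log2 expression, and array medians lay between 6.21 and 6.35. Marker genes were read on the brightest probe set of each gene. Of 11 measured medium spiny neuron markers 1 had a mean below 6, as had 3 of 5 markers of cortical projection neurons. The SD of all values of an array ran from 1.90 to 2.05 in null and from 1.84 to 1.97 in wild type mice, and was 2.06 in the heterozygote. Ttr, a choroid plexus transcript, varied between 7.11 and 13.44 in null and between 9.38 and 13.34 in wild type arrays, with overlap between the groups. Among markers of other cells, 1 of 6 astroglia and progenitor genes rose (Sox2, called in 2 of 7 fits with an array left out), and 0 were called of the cortical, choroid plexus, blood, oligodendrocyte, endothelial and microglia lists. The mean of the 5 microglia markers ran from 7.30 to 7.80 in null and from 6.94 to 7.10 in wild type arrays.

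The Kcn probe sets that passed the threshold as reported all belonged to the voltage-gated pore genes and to Kcnip. Of the 167 probe sets, 6 rose and 4 fell in null striatum at an adjusted p under 0.05, which is 5.99%, against 2.32% of all probe sets. The share that rose was 3.59%, against 1.87% of all probe sets, and the share that fell was 2.4%, against 0.453%. The 10 called probe sets belong to 7 genes. Kcnd3, Kcnip1, Kcnc4 and Kcna5 rose, and Kcnip2, Kcna1 and Kcna4 fell. Every null array lay above every wild type array on 14 Kcn probe sets (8.38%, against 7.7% of all) and below on another 14 (8.38%, against 8.85%). The median Kcn difference, null minus wild type, was -0.11, against -0.08 over all probe sets, and the median size of a difference was 0.21, against 0.20. By these measures the family as a whole lay near the background, and the called members stood at the edges of its range of -1.63 to 1.53. Taking only the brightest probe set of each gene, 4 genes rose and 1 fell, with 3.94% of all genes called either way. Counts of Kcn probe sets moved when single arrays were left out. They were 3 higher and 2 lower without wild type 2, null 1 or null 2, 1 and 1 without wild type 3, 5 and 3 without null 3, 7 and 4 without wild type 1, and 7 and 5 without null 4. Counts over all probe sets moved too, for example to 210 higher and 82 lower without wild type 3 and to 1733 and 443 without wild type 1, against 840 and 204 as reported. With the SD of each array as a covariate, 1 Kcn probe set was higher and 2 were lower, and over all probe sets 189 and 93. In these bulk samples, fewer cells of a type and less RNA per cell cannot be told apart.

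By group, 4 of 65 voltage-gated probe sets rose and 3 fell, in 31 genes, and 2 of 12 Kcnip probe sets rose and 1 fell, in 4 genes. No probe set was called among 31 of inward rectifiers, 18 of two-pore channels, 21 of calcium- or sodium-activated channels, 12 of the auxiliary Kcnab and Kcne genes or 8 of antisense and overlapping transcripts. Unadjusted p values under 0.05 were found for 20, 5, 5, 1, 3, 3 and 3 probe sets, in the order voltage-gated, Kcnip, inward rectifier, two-pore, calcium- or sodium-activated, Kcnab and Kcne, and antisense, against 19.6% of all probe sets. Differences between these channel groups were not tested.

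**Figure D1:**
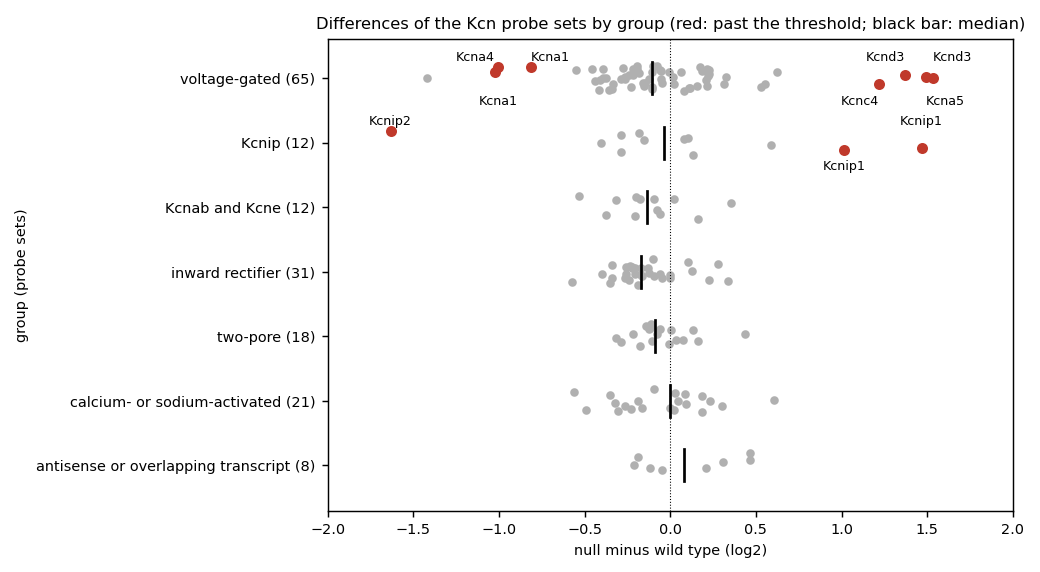
Each point is 1 Kcn probe set, placed by its null minus wild type difference in log2 units (horizontal axis) within its group (vertical axis, probe sets in brackets). Red points passed the threshold, black bars are group medians, and all 10 red points lie in the voltage-gated and Kcnip rows, while medians stay between -0.17 and 0.08.

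Of the Kv4 pore genes, Kcnd3 had called probe sets and Kcnd1 and Kcnd2 had none. Kcnd3, which encodes the A-type channel Kv4.3, read 9.12, 9.43, 9.60 and 9.04 in null 1 to 4 on its brightest probe set, against 8.28, 7.53 and 7.49 in wild type 1 to 3. All null arrays were above all wild type arrays, and the highest wild type array, wild type 1, stood apart from the other wild type arrays. The difference was 1.53 (95% interval 1.05 to 2.02, 2.89-fold, limma adjusted p = 0.00882). The p was 0.053 without wild type 3 and 0.111 when the heterozygote joined the controls. A dimmer probe set of Kcnd3, with 6.63, 7.05, 6.25 and 6.55 in null and 5.54, 4.92 and 5.29 in wild type arrays, was also higher, by 1.37 (adjusted p = 0.011, and 0.0572 without wild type 3). The remaining Kcnd3 probe sets differed by 0.11 and 0.18 (adjusted p = 0.705 and 0.486), so its probe sets did not move alike. The sources used here do not say which exons or transcript ends each probe set reads.

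Kcnd2, which encodes Kv4.2, read 9.33, 9.27, 9.10 and 9.36 in null and 9.13, 9.05 and 8.63 in wild type arrays on its brightest probe set. The groups overlapped, and the difference of 0.33 had a 95% interval of -0.01 to 0.66 (adjusted p = 0.262). The other Kcnd2 probe sets differed by 0.32, 0.53 (95% interval -0.06 to 1.12) and -0.08. The difference between Kcnd3 and Kcnd2 was not tested, and some of their intervals overlap. Of 11 Kcnd probe sets, 2 rose, 0 fell and 9 were not called.

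The reference sequence just upstream of Kcnd3 is shown as that of the pore gene with the largest rise. Beside it stand the sequences of Kcnip2, the gene with the largest fall, and of Kcna4, the other fallen gene with a listed start. Each line holds the 250 bases before the annotated start, on the gene's strand, taken from RefSeq on GRCm38.p6 (strain C57BL/6J, whereas the mice here were BALB/c). The windows lie at chr3:105451640-105451889 (plus strand, Kcnd3), chr19:45816064-45816313 (minus strand, Kcnip2) and chr2:107290339-107290588 (plus strand, Kcna4). Capitals mark GGCCGG, the core of a sequence that Ctip proteins bind in vitro (CCGGCC when on the other strand), or TGACCA, the core bound by the related protein Bcl11a. Both were searched on both strands, and they do not overlap in letters.
Kcnd3: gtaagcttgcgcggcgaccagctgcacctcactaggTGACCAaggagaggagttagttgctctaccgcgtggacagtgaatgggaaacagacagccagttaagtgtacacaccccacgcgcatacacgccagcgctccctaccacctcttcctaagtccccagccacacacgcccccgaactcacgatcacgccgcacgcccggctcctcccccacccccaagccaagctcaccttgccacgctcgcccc
Kcnip2: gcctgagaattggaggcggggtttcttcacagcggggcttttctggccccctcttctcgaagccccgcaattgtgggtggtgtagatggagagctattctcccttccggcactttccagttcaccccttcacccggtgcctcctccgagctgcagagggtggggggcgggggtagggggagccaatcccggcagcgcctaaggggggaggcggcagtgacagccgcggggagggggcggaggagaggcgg
Kcna4: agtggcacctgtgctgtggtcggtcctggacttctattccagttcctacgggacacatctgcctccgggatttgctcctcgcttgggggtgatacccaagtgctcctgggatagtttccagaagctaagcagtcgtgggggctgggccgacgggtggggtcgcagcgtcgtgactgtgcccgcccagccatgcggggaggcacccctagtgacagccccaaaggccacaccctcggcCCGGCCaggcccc
Kcnd3 holds 1 TGACCA, Kcna4 holds 1 GGCCGG on the other strand, and Kcnip2 holds neither. Over all 32851 windows of that length in the same table, GGCCGG occurs in 15.8% and TGACCA in 11.4%. A match describes letters and is not a site. Neither motif was found in the windows of Kcna5, Kcnc4 or any of the 3 starts of Kcnip1, and Kcna1 has no window in the table. GC content was 66.8% for Kcnip2, 62.8% for Kcnd3 and 65.2% for Kcna4.

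Of the genes that encode Kv4 partner proteins, Kcnip2 fell and Kcnip1 rose. Kcnip2, whose protein KChIP2 raises the surface level of Kv4 channels, read 7.66, 7.65, 8.05 and 7.97 in null 1 to 4, against 9.22, 9.74 and 9.43 in wild type 1 to 3. The null arrays lay within a narrow band far below all wild type arrays. The difference was -1.63 (95% interval -2.00 to -1.27, 3.10-fold lower, adjusted p = 0.00189), the largest in size among all Kcn probe sets. It remained called under all 22 alternatives, with adjusted p between 0.000172 and 0.0227. Of these, the looser threshold of 0.1 and the separate group for the heterozygote could not lose the call. Both dimmer Kcnip2 probe sets pointed the same way without passing, at -0.29 and -0.41 (adjusted p = 0.349 and 0.161).

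Of 11 measured medium spiny neuron markers, 4 fell (Ppp1r1b, Drd1, Pde10a and Gng7), 0 rose and 7 were not called. Background shares over all probe sets were 0.453% lower and 1.87% higher. On the brightest probe set per gene, as the markers were read, 154 of 18193 genes fell and 562 rose, with p adjusted over genes. Among the uncalled markers Penk, Tac1 and Adcy5 had positive differences of 0.21, 0.14 and 0.30. The mean over the list ran from 8.66 to 8.90 in null and from 9.14 to 9.41 in wild type arrays, and was 9.79 in the heterozygote. With single arrays left out in turn, Pde10a and Gng7 remained called in 7 of 7 fits, Ppp1r1b in 4 and Drd1 in 2. The part of these markers in the Kcnip2 difference was not tested.

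Kcnip1 encodes KChIP1, which in cortex and hippocampus marks some GABAergic interneurons. Its brightest probe set read 8.63, 8.91, 9.10 and 8.31 in null and 7.86, 7.32 and 6.63 in wild type arrays. All null arrays were above the wild type arrays, which themselves spread over more than 1 log2 unit. The difference was 1.47 (95% interval 0.85 to 2.09, adjusted p = 0.0281), and adjusted p was 0.0999 without wild type 2, 0.0903 without wild type 3, 0.067 without null 1, 0.0918 without null 2 and 0.062 without null 3. Another Kcnip1 probe set, with 8.20, 8.18, 8.49 and 7.87 in null and 7.32, 7.30 and 6.89 in wild type arrays, was higher by 1.02 (adjusted p = 0.0181). That call was lost without wild type 2 (0.056), wild type 3 (0.0824), null 1 (0.0585) or null 2 (0.062). The other Kcnip1 probe sets differed by 0.08 and -0.29 and were not called (adjusted p = 0.759 and 0.277). With the heterozygote among the controls, adjusted p was 0.302 and 0.288 for the called probe sets.

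Kcnip3, also known as DREAM for its role as a calcium-dependent transcriptional repressor, gave opposite signs. Its brightest probe set differed by -0.18 (adjusted p = 0.529), while another read 7.70, 7.67, 7.33 and 7.40 in null and 6.80, 6.89 and 7.14 in wild type arrays. On that probe set the groups did not overlap, yet the difference of 0.58 missed the threshold (adjusted p = 0.0741), the nearest of the uncalled Kcn probe sets. Kcnip4, a KChIP that speeds or slows Kv4 inactivation by isoform, differed by -0.16, 0.13 and 0.10, and all 3 of its probe sets had means below 6.

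**Figure D2:**
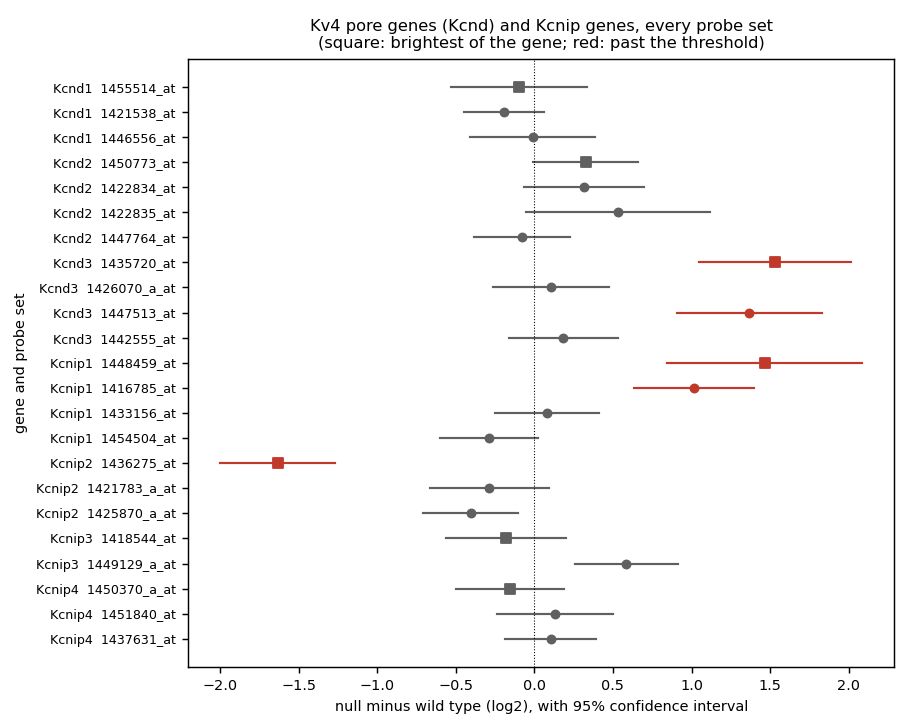
Null minus wild type differences in log2 units (horizontal axis, lines show 95% intervals from limma) are drawn for every probe set of Kcnd1 to Kcnd3 and Kcnip1 to Kcnip4. Squares mark each gene's brightest probe set and red marks a call. Kcnip2 stands alone on the left at -1.63, and paired probe sets of Kcnd3 and Kcnip1 stand on the right.

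Dpp10, of the Dpp family of membrane partners of Kv4, showed a larger difference than any Kcn gene. It read 8.38, 8.47, 8.45 and 7.99 in null and 6.27, 6.37 and 6.25 in wild type arrays, with the heterozygote between them at 7.46. The difference was 2.03 (4.07-fold, adjusted p = 0.000539), and it remained called with any single array left out. Dpp6, its close relative, differed by 0.16 (adjusted p = 0.491). Among 31 measured partners of potassium channels, a list written from general knowledge, 3 rose, 0 fell and 28 were not called, with a median difference of 0.16. Over all probe sets 1.87% rose, with a median of -0.08. The partners were read on the brightest probe set per gene, on which 562 of 18193 genes rose and 154 fell. The other partners called were Ank2, an ankyrin that anchors membrane proteins (2.12-fold, adjusted p = 0.0332), and Cntn2, a cell adhesion protein that clusters Kv1 channels beside nodes of myelinated axons (1.72-fold, 0.0487). Both were less stable, with adjusted p up to 0.141 for Ank2 when wild type 2 or 3 or null 1, 2 or 3 was left out, and up to 0.189 for Cntn2, which kept its call in 1 of 7 such fits, that without null 4. Cntnap2, which acts with Cntn2 and was named, like Dpp6, after its values were seen, differed by 0.97 without passing (adjusted p = 0.0844), although all null arrays lay above all wild type arrays.

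Among Kv1 genes, Kcna1 and Kcna4 fell and Kcna5 rose. Kcna1 encodes Kv1.1, an axonal channel that limits firing. On 1 probe set it read 5.10, 4.65, 5.02 and 5.18 in null and 5.83, 6.12 and 6.03 in wild type arrays, 2.01-fold lower (difference -1.01, adjusted p = 0.0117). On another it read 6.02, 6.10, 6.26 and 6.13 in null and 6.93, 6.80 and 7.10 in wild type arrays, 1.76-fold lower (difference -0.81, adjusted p = 0.0126). Neither probe set showed any overlap between the groups. The first lost its call without wild type 2 (0.056) or wild type 3 (0.0633), and the second without wild type 3 (0.0656), null 1 (0.0522) or null 2 (0.0506).

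The brightest Kcna1 probe set had the largest Kcna1 difference but was not called, since its arrays spread widely. It read 5.74, 5.53, 6.32 and 7.02 in null and 8.48, 7.11 and 7.14 in wild type arrays. The groups did not overlap, with null 4 just under the lower wild type arrays. The difference was -1.42 (95% interval -2.32 to -0.52, adjusted p = 0.109), and adjusted p was 0.0345 without null 4. The last Kcna1 probe set differed by -0.23, so all 4 had the same sign.

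Kcna4, which encodes Kv1.4, the inactivating A-type member of the Kv1 subfamily, was called on its dimmer probe set. It read 4.01, 4.04, 3.75 and 4.47 in null and 5.50, 4.82 and 4.96 in wild type arrays, values below the array medians. The groups did not overlap, and the difference was -1.02 (adjusted p = 0.0359). This was the least stable of the calls: leaving out any 1 of wild type 1, 2 and 3 gave 0.0511, 0.0657 and 0.108, leaving out null 1, 2 or 3 gave 0.0964, 0.108 and 0.0746, and only the fit without null 4 kept it. The brightest Kcna4 probe set differed by -0.42 (adjusted p = 0.202) and its groups overlapped.

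Kcna5 encodes Kv1.5, best known from atrial muscle and vascular smooth muscle. Its single probe set read 7.07, 7.02, 7.35 and 6.21 in null and 5.28, 5.28 and 5.71 in wild type arrays. Null 4 was the lowest null array but still above all wild type arrays. The difference was 1.49 (95% interval 0.94 to 2.05, 2.81-fold, adjusted p = 0.0171). Adjusted p was 0.0791 without wild type 2, 0.0524 without wild type 3, 0.0549 without null 1 and 0.0606 without null 2, and 0.304 with the heterozygote among the controls. In the RefSeq annotation, Kcna5, Kcna1 and Kcna6 are consecutive protein-coding genes on chromosome 6, so that a gene that rose lies next to one that fell. Over the 16 Kcna probe sets of 7 genes, 1 rose, 3 fell and 13 had a negative difference.

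Of the Kv3 genes, some of whose channels let neurons fire at high rates, Kcnc4 rose. Kcnc4 encodes Kv3.4 and read 8.46, 7.90, 8.22 and 8.07 in null and 7.16, 6.89 and 6.79 in wild type arrays. Each group was tight and the gap between them was wider than either group's spread. The difference was 1.22 (95% interval 0.86 to 1.57, 2.32-fold, adjusted p = 0.00669). The call held in 20 of 21 alternatives, each array left out included, and was lost with array SD as a covariate (0.0513). Here too the looser threshold and the separate group for the heterozygote could not lose it. Its probe set is of the _s_at class, which may match several transcripts, and the alternative without that class left it out. The other Kcnc4 probe set differed by -0.05 (adjusted p = 0.808). Kcnc2, the Kv3.2 gene of fast-spiking interneurons, read 4.25, 4.53, 4.72 and 4.27 in null and 4.07, 3.57 and 3.82 in wild type arrays. Its groups did not overlap, but the difference of 0.62 was not called (adjusted p = 0.0918, and 0.0474 without wild type 1). Kcnc1, the Kv3.1 gene, had 4 probe sets with differences of 0.11, -0.44, 0.21 and 0.55, none called.

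Kcnip1 and some Kv3 genes are known to be expressed in interneurons, among them Kcnc2, which was not called. Of 6 markers of interneurons 2 rose, Lhx6 and Calb2, 0 fell and 4 were not called. On the brightest probe set per gene, 562 of all 18193 genes rose and 154 fell. Among the uncalled markers, Npy differed by -0.65, with every null array below every wild type array, and Sst by -0.29, while Lhx8 and Chat differed by 1.34 and 0.10. The list mean ran from 8.86 to 9.11 in null and from 8.25 to 8.84 in wild type arrays, and was 9.23 in the heterozygote. With single arrays left out, Lhx6 kept its call in 1 of 7 fits and Calb2 in 5. The part of these markers in the Kcnip1 and Kcnc4 differences was not tested.

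**Figure D3:**
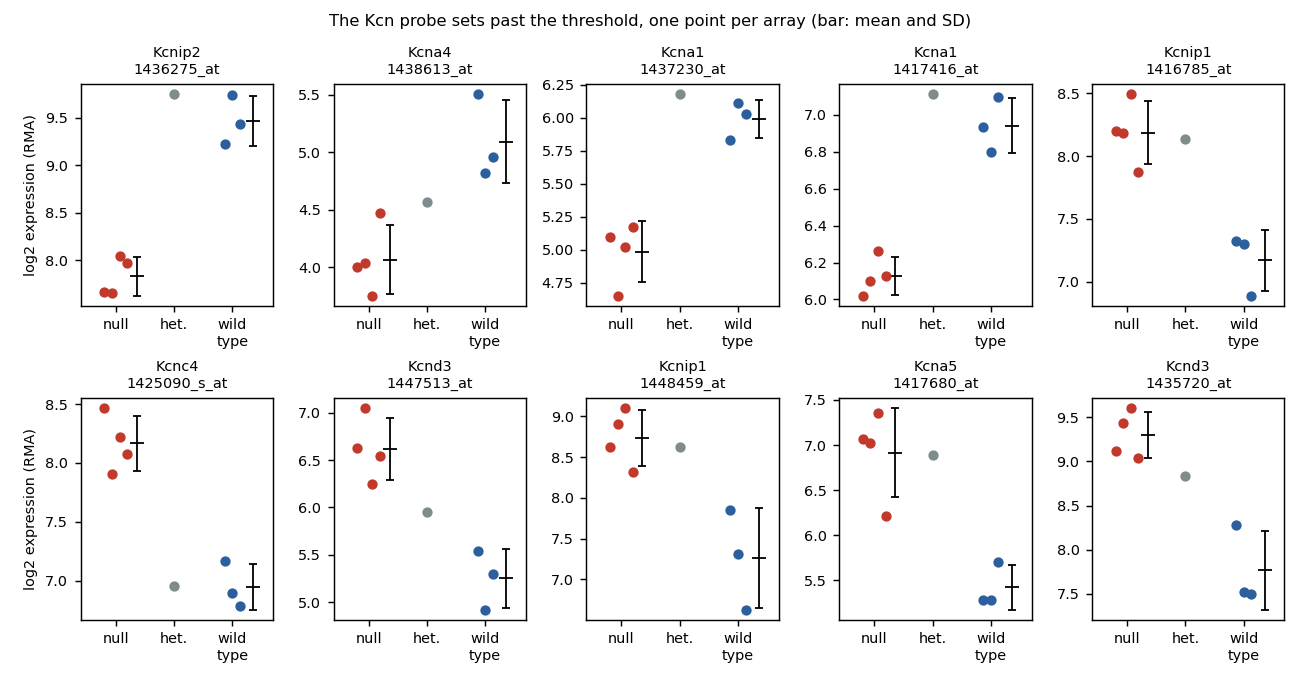
Log2 expression (vertical axes, each panel with its own scale) is shown on every array for the 10 called Kcn probe sets, ordered by their difference. Points are single mice in null, heterozygote and wild type groups, and bars give the mean and SD of the null and wild type groups. Null and wild type points do not overlap in any panel, and the position of the heterozygote varies between panels.

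The remaining voltage-gated genes gave no calls. Kcnq3 and Kcnq5, subunits of the M-current that muscarinic receptors close, differed by 0.22 and -0.55 on their brightest probe sets (adjusted p = 0.49 and 0.193). Kcnq5 read 7.46, 6.99, 7.06 and 7.73 in null and 8.14, 7.63 and 7.81 in wild type arrays, where null 4 overlapped the wild type range. Among 12 auxiliary probe sets of Kcnab and Kcne, 0 were called and 3 had a positive difference. Kcnab1, a cytoplasmic beta subunit that gives Kv1 channels fast inactivation, read 8.42, 7.67, 8.40 and 8.22 in null and 8.98, 8.82 and 8.35 in wild type arrays, with overlap and a difference of -0.54 (adjusted p = 0.217). Its heterozygote value was 9.44. Kcne1 differed by -0.38 (adjusted p = 0.204) on a probe set with means below 6. Kcne2, also a choroid plexus gene, read 4.36, 5.57, 4.06 and 4.91 in null and 4.95, 4.69 and 4.47 in wild type arrays. Its highest value was in null 2, the null array with the highest Ttr (13.44).

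No inward rectifier probe set was called, and most had a negative difference. Of 31 probe sets in 15 genes, 26 had a negative difference (83.9%, against 62% of all probe sets), with a median of -0.17 against -0.08 and a range of -0.57 to 0.34. With array SD as a covariate 19 were negative and the median was -0.06, against -0.01 over all probe sets in that fit. Kcnj14, which encodes Kir2.4, read 5.23, 4.74, 4.69 and 4.81 in null and 5.38, 5.62 and 5.32 in wild type arrays, which did not overlap. Its difference of -0.57 was not called (adjusted p = 0.101). Kcnj2 and Kcnj4, the Kir2.1 and Kir2.3 genes whose channels hold medium spiny neurons at their down state, differed by 0.10 (95% interval -0.14 to 0.34) and -0.24 (-0.53 to 0.04). The Kcnj2 probe set read near 3 on every array, where a change may go unseen.

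The G protein-gated rectifier genes Kcnj3 and Kcnj6 (GIRK1 and GIRK2) differed by -0.20 and -0.05 on their brightest probe sets (adjusted p = 0.474 and 0.861). Their other probe sets differed by 0.28, -0.16 and 0.13 for Kcnj3 and by -0.35, -0.34, -0.34 and -0.26 for Kcnj6, none called. The groups did not overlap on the Kcnj3 probe set at 0.28 (adjusted p = 0.254). On 1 Kcnj6 probe set at -0.34 they did not overlap either (adjusted p = 0.209). Kcnj8, which encodes Kir6.1 of ATP-sensitive channels and marks pericytes, read 7.02, 7.11, 7.28 and 6.93 in null and 6.56, 6.80 and 6.88 in wild type arrays. The groups did not overlap, and the difference of 0.34 was not called (adjusted p = 0.22). Endothelial and mural markers, 7 with Kcnj8 among them, had a list mean of 7.47 to 7.91 in null and 7.19 to 7.48 in wild type arrays, with 0 called. Kcnj13, a rectifier of epithelia that includes the choroid plexus, differed by -0.40 (adjusted p = 0.33).

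Two-pore channel genes had the smallest median size of difference among the channel groups. Their 18 probe sets in 12 genes ranged from -0.32 to 0.43, with a median size of difference of 0.12 against 0.20 over all probe sets, and on none did the null and wild type arrays separate. Kcnk2, which encodes the stretch- and lipid-gated TREK-1, read 8.59, 8.89, 9.18 and 8.55 in null and 9.04, 8.51 and 8.38 in wild type arrays. Its groups overlapped, and the difference of 0.16 had a 95% interval of -0.29 to 0.61. Kcnk1, the TWIK-1 gene, differed by 0.43 and -0.12 on its probe sets, and Kcnk12 by -0.32.

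Of the calcium- or sodium-activated channel genes, none was called among 21 probe sets, and their median difference was 0.00. Kcnma1, which encodes the pore of the large-conductance BK channel, had 5 probe sets with differences of at most 0.23. Kcnn1, which encodes the small-conductance channel SK1, read 7.68, 7.87, 8.01 and 7.09 in null and 7.03, 7.12 and 7.02 in wild type arrays. Only null 4 fell within the wild type range, and the difference of 0.60 (adjusted p = 0.16) was called without that array (0.0162). The other Kcnn1 probe set differed by 0.02, with overlap between the groups (adjusted p = 0.948). Kcnn2 and Kcnn3, the SK2 and SK3 genes, differed by -0.10 and -0.32. Kcnmb1, a BK beta subunit of smooth muscle, differed by -0.49 on its brightest probe set (adjusted p = 0.183, and 0.0496 without wild type 1). Its other probe set differed by -0.19 (adjusted p = 0.377). The Kcnmb1 gene overlaps Kcnip1 on chromosome 11 in the annotation, and the called Kcnip1 probe sets differed in the opposite direction.

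Among transcripts named for Kcn genes that encode no subunit, Kcnq1ot1, an imprinted antisense RNA of the Kcnq1 locus, had 6 probe sets with differences from -0.21 to 0.47. On 3 of these the unadjusted p was under 0.05, and none was called.

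On Bcl11b itself the array labelled heterozygote read 12.43, 11.33, 10.48 and 9.72 on the 4 probe sets, against wild type means of 12.29, 11.40, 10.14 and 9.50, so that the targeted gene stood at the wild type level. On the called Kcn probe sets its position varied from gene to gene. On Kcnip2 it read 9.75 and on Kcna1 6.18 and 7.11, above every wild type array. On Kcnc4 it read 6.95, within the wild type range. On Kcna5 it read 6.89, and on Kcnip1 8.62 and 8.14, inside the null range. On Kcnd3, with 8.84 and 5.95, and on Kcna4, with 4.57, it lay between the groups. Past the midpoint towards the null mean were 5 of the 6 risen probe sets and 1 of the 4 fallen ones. As the heterozygote was 1 mouse, these positions have no error.

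**Figure D4:**
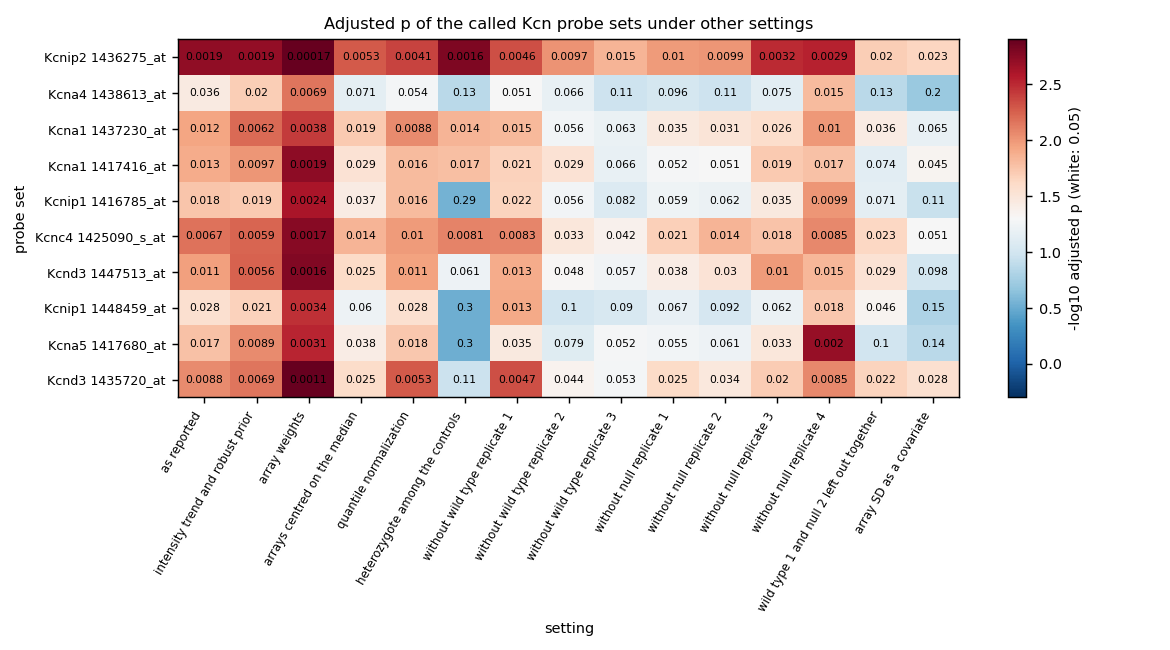
Adjusted p (printed in each cell, coloured as -log10 with white at 0.05) is given for the 10 called Kcn probe sets (rows) as reported and under 14 other settings (columns). The Kcnip2 row stays red throughout, from 0.00017 to 0.023, while Kcnip1, Kcna5 and Kcna4 turn blue in several columns.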

How the data were processed

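Each array measured RNA of 1 mouse. The authors normalized the arrays with RMA in Bioconductor and deposited log2 values per probe set, per the series' design text. RMA subtracts background, equalizes intensity distributions and summarises probes. The sources used here give neither its version nor which arrays were normalized together. Values were used as deposited. Gene names came from the platform annotation, in which 34945 probe sets carry 1 symbol, 932 several and 9160 none. All 84 Kcn symbols matched RefSeq, assembly GRCm38.p6, which lists 14 other Kcn symbols that were not analysed here.

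Null and wild type arrays (4 and 3) were compared with limma 3.58.1 in R 4.3.3 over all 45037 probe sets, with no covariate, the heterozygote left out, a two-sided test and an adjusted p threshold of 0.05. The code was tested on simulated data. Figures used matplotlib 3.10.9. The number of arrays limits the precision.

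Genes named were those with a called probe set, the 3 of largest difference on the brightest probe set in each group, and a list of channels known from striatum and interneurons. Other genes named are Kcnd1, in a plot, Kcne2, a marker, and Kcna6, a neighbour. Members and lists were chosen with earlier results of these data known. Alternatives covered the test, threshold, scaling, filters, samples and array SD.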

Additional observations from a re-analysis of the deposited data

Results flagged for a closer look

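In 3 of the 82 Kcn probe sets named by the rule (3.66%), 1 of the 4 null arrays lay far from the others by Dixon's test, where chance gives about 5%, and each time it was null 3. On the brightest Kcnc1 probe set null 3 read 8.81, with a gap of 0.937 of the group's range. On the brightest Kcne1 probe set it read 5.36, with 0.9337, and on 1 Kcnq5 probe set 4.46, with 0.8333. None of these probe sets was called.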

How the results depend on the processing

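Counts are Kcn probe sets higher and lower in null striatum, 6 and 4 as reported. They were 19 and 30 with SAM scores beyond 2, where all probe sets gave 4630 and 5717, and 2 and 1 at an adjusted p under 0.01 (all 190 and 52). They were 9 and 7 with array weights (all probe sets 2686 and 965), 6 and 2 among the 98 with a mean of at least 6 (all 932 and 196), and 4 and 1 with the brightest probe set per gene (all 562 and 154). They were 1 and 3 with the heterozygote among the controls (all probe sets 110 and 96). Without wild type 1 and null 2 together they were 4 and 2 (all 412 and 62), and with array SD as a covariate 1 and 2 (all 189 and 93). With single arrays left out they ran from 1 to 7 higher and from 1 to 5 lower (all 210 to 1733 and 76 to 443). Bcl11b had 0.00894 to 0.0563 with single arrays left out and 0.0695 without wild type 1 and null 2. Quantile normalization gave 6 and 3 (all 839 and 328), with 71.9% of all called probe sets higher against 80.5% as reported. Null and wild type mice with the same replicate number did not deviate alike from their group means (correlations from -0.31 to -0.17 in 3 pairs). Pairs with different numbers ran from -0.42 to 0.37. Deviations from the mean of so few arrays depend on each other, so this check cannot show whether the numbers pair the mice. The fit with replicate number as a block gave 7 and 5 (all 1696 and 212). Only null had a replicate 4, so the differences in that fit were those without null 4. No called Kcn probe set changed sign. Of 72 uncalled ones named, 20 changed sign and 23 were called under at least 1 alternative. All 23 were called with SAM scores beyond 2. Only 1 probe set each of Kcnmb1, Kcnip3, Kcnn1, Kcnc2 and Kcna1 was also called under another setting. The small groups and values below 6, found for 69 of 167 members, limit what could be detected.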
